A study of Mus musculus with 3 samples.

Results

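The glycosyltransferases and sulfotransferases that build mucin type glycans were examined in follicle-associated epithelium, the epithelial sheet that covers the follicles of Peyer's patches in mouse small intestine. The genes were those whose symbol in the array's annotation starts with Galnt, C1galt1, B3gnt, B3galt, B4galt, B4galnt, Gcnt, Fut, St3gal, St6gal, St8sia or Chst. They numbered 91 of the 18193 genes with a probe set of their own, each represented by its brightest probe set, and 61 of the 91 were bright enough to be tested. The prefixes also take in St6galnac genes, the pseudogene Fut4-ps1, and enzymes of glycolipids and proteoglycans. The data are 3 Affymetrix arrays of untreated C57BL/6 tissue. In the 2 RBP-J depleted samples both Rbpj alleles are floxed and Cre is driven by the Villin promoter, which is active throughout the intestinal epithelium, not in this sheet alone; the remaining sample is wild type. The labels give no age, do not mention pooling and do not say that the depleted samples came from separate animals, so their spread may be technical.

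O-linked mucin glycans start when a polypeptide GalNAc transferase of the Galnt family puts GalNAc on a serine or threonine. Galactose or GlcNAc is then added to form a core, the core is extended and branched with further galactose and GlcNAc, and the chain ends in fucose, sialic acid or sulfate. In the gut these glycans make up most of the mass of secreted and membrane mucins and feed or bind bacteria. Terminal fucose read by the lectin UEA-1 marks M cells, the antigen-sampling cells of mouse follicle-associated epithelium. RBP-J binds DNA and carries Notch signals to target genes, and loss of Notch signalling in the intestine is known to favour goblet cells, which make mucin.

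Intensities are in multiples of the array median. Differences are depleted minus wild type on the log2(intensity + 0.248) scale, on which changes of dim genes are understated. Over all 11885 tested genes the median difference was -0.003 in depleted array 1 and 0.22 in depleted array 2, a shift to keep in mind for every difference in array 2. The intensities of different probe sets do not rank the transcripts. Rbpj read 2.72 and 5.74 in the depleted arrays, against 7.15 in wild type, and the sources do not say whether its probe set lies in the deleted part. Xist read 42.8 and 43.4 in the depleted arrays, against 0.297 in wild type, and Eif2s3y, on the Y chromosome, 0.122 and 0.056 in the depleted arrays against 20.6 in wild type, so genotype and sex cannot be told apart. The ratio of 3' to 5' Gapdh control probe sets was 2.28 and 1.54 in the depleted arrays and 1.83 in wild type. In tissue such as this, fewer cells of a type and less RNA per cell cannot be told apart.

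No glycosyltransferase passed the test. The limma adjusted p was under 0.05 for 0 of the 61 tested, against 0.0841% of all tested genes, and 6 had an unadjusted p under 0.05, or 9.84%, against a background of 2.27%. These 6 were B3galt5 and B4galnt4, which were lower, and Galntl6, Galnt5, St8sia1 and Chst11, which were higher. Of these, B3galt5 reached the filter's 0.598 only in wild type and Galntl6 only in depleted array 1. St8sia1 and Chst11 reached it only in the depleted arrays, so the filter itself favoured these differences. With 1 wild type array the spread in this fit comes from the depleted pair alone, pooled over genes. Both differences of a gene subtract that same array, so an error in it moves both the same way. Agreement of the depleted arrays therefore does not measure how far wild type varies. Reading the arrays side by side, 30 of the 61 were above wild type in both depleted arrays, or 49.2%, where the background was 39.0%. Below wild type in both were 9, or 14.8%, where the background was 19.5%, and the other 22 went opposite ways, or 36.1%, where the background was 41.5%. The median difference over the 61 was 0.16 in depleted array 1, against -0.003 over all tested genes, and 0.21 in array 2, against 0.22. Above wild type in array 1 were 40 of the 61, or 65.6%, against a background of 49.8%, and in array 2 were 42, or 68.9%, against 69.7%. After each array's own median was subtracted, 23 lay above 0 in both arrays, or 37.7%, and 15 below it in both, or 24.6%, where the background was 29.9% either way. Of the 30, 25 were still above wild type in both arrays with quantile normalization and 22 with arrays scaled to bright named genes. These counts rest on each gene's brightest probe set. Genes higher in both had 31 other probe sets above the filter, of which 17 were higher in both and 9 lower in both. Genes lower in both had 6 others, of which 4 were lower in both.

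**Figure D1:**
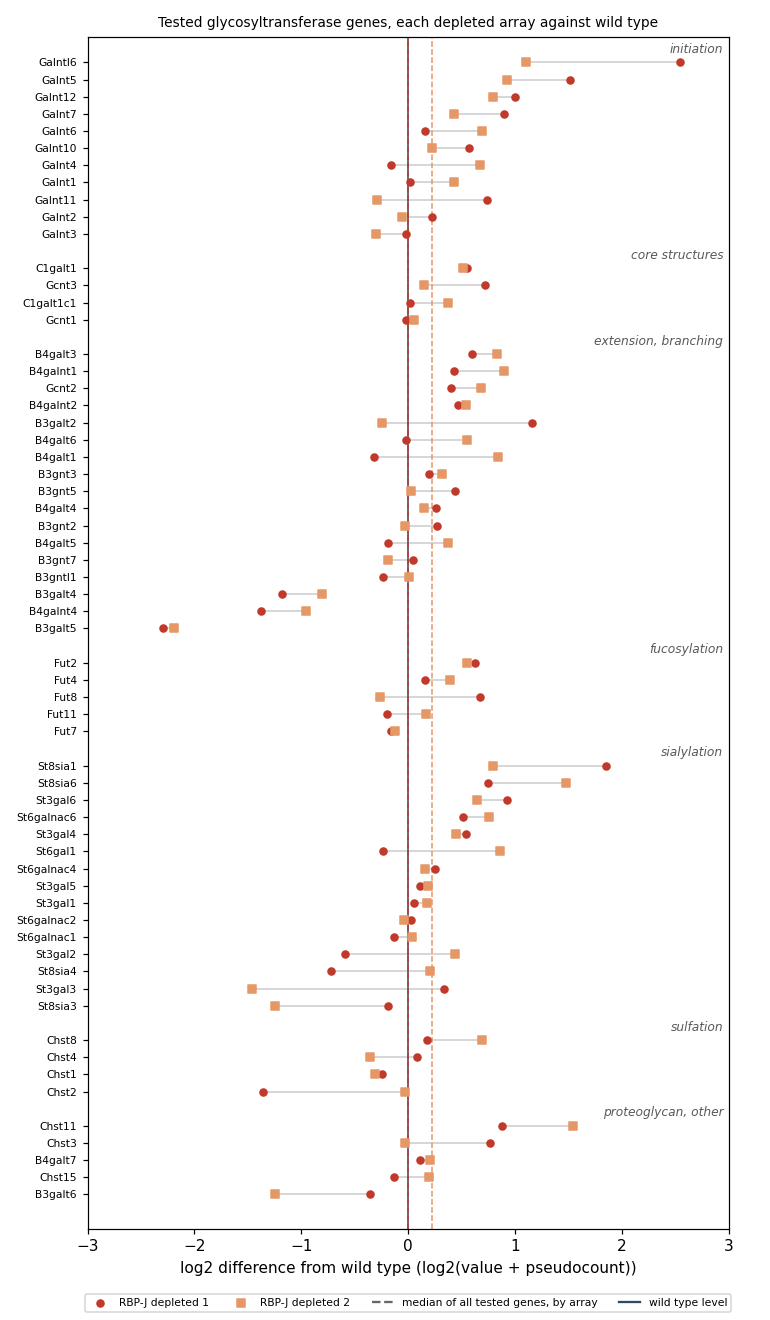
Log2 difference from wild type for the 61 tested genes, grouped by role and ordered by the mean of both arrays; circles are depleted array 1, squares depleted array 2, and dashed lines the medians of all tested genes (-0.003 and 0.22). B3galt5 lies at -2.30 and -2.19, far below the other chain-extending enzymes, and the initiating Galnt enzymes lie mostly right of the wild type line.

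The member furthest below wild type was B3galt5, the galactosyltransferase that makes type 1 chains, the backbone of Lewis a and Lewis b glycans. It read 0.424 and 0.473 in the depleted arrays, against 3.05 in wild type. Both depleted values lay under the array median and under the filter of 0.598, and the wild type value was above both. The gene was thus tested only through its wild type value. The log2 differences were -2.30 and -2.19, with a mean of -2.24 (SE 0.60, limma adjusted p = 0.158, unadjusted p = 0.000188), and it was the one member at least 2-fold lower in both arrays, against a background of 0.488%. Its next probe set read 0.465 and 0.343 in the depleted arrays, against 1.05 in wild type, and a dimmer one 0.283 and 0.458 in the depleted arrays against 0.727 in wild type. Both probe sets put the depleted arrays below wild type as well, at -0.87 and -1.14 for the brighter and -0.88 and -0.47 for the dimmer. The dimmest of its 4 probe sets, at 0.030 and 0.217 in the depleted arrays against 0.081 in wild type, gave -0.24 and 0.50. With a pseudocount of 5 the difference was -0.56 and passed the test (limma adjusted p = 0.0146). With the gene's probe sets averaged it was -1.34 (limma adjusted p = 0.862), and over all settings tested the adjusted p ran up to 0.9999, with quantile normalization.

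B3galt4, which makes the gangliosides GM1 and GD1b, and B4galnt4, which makes the GalNAc-GlcNAc disaccharide LacdiNAc, were also lower in both depleted arrays. B3galt4 read 0.709 and 0.986 in the depleted arrays and 1.92 in wild type, log2 differences of -1.18 and -0.81. B4galnt4 read 1.25 and 1.75 in the depleted arrays and 3.64 in wild type, log2 differences of -1.38 and -0.96 (mean -1.17, SE 0.53, limma adjusted p = 0.9997). Each of these genes has 1 probe set, so no other probe set bears on them. B3galt6, which builds the linker of proteoglycans, read 3.28 and 1.65 in the depleted arrays and 4.26 in wild type. Both of its other probe sets were lower in both arrays too, by -0.69 and -1.14 and by -0.05 and -0.41. Of the 4 tested B3galt genes, 3 were thus below wild type in both arrays, where 19.5% of all tested genes were. The family was singled out after its values were seen and was not tested as a group. The other one, B3galt2, was split, at 1.78 and 0.516 in the depleted arrays against 0.657 in wild type. Its other probe sets were lower in both, at -0.05 and -0.52 and, below the filter, at -0.04 and -0.55.

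Promoter windows of 300 bases are shown for B3galt5, the gene furthest below wild type, for B3galt4, which is lower and holds a match to the RBP-J core motif, for St3gal6, which is higher and holds one, and for B4galnt2, the brightest probe set of the group. Each runs from 250 bases before an annotated transcript start to 50 bases after it, in RefSeq's GRCm38.p6 sequence. Capitals mark TGGGAA, the RBP-J core, searched on both strands, so that TTCCCA is the same motif on the other strand. B3galt5 has 3 annotated starts, on the plus strand at chr16:96235551-96235850, chr16:96273263-96273562 and chr16:96280782-96281081. B3galt4 lies on the minus strand at chr17:33951439-33951738, St3gal6 (the second of 2 starts) on the minus strand at chr16:58523377-58523676, and B4galnt2 on the minus strand at chr11:95914822-95915121.
B3galt5, start 1: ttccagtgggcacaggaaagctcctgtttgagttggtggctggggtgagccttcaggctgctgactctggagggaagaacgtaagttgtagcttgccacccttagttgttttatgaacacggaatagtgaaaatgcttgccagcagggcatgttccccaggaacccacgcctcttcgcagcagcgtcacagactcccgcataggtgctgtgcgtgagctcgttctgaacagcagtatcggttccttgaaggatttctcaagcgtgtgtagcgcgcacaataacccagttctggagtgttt
B3galt5, start 2: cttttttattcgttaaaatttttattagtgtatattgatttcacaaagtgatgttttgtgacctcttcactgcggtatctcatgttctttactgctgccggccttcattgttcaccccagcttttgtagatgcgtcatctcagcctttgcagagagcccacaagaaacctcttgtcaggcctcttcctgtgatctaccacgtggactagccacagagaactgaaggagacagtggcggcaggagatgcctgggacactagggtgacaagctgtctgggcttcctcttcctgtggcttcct
B3galt5, start 3: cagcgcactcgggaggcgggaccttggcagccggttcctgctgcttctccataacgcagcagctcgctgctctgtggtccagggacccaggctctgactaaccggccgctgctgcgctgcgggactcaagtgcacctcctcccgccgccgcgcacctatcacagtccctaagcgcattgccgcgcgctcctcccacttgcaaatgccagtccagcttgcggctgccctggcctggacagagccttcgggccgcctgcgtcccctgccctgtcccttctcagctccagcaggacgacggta
B3galt4: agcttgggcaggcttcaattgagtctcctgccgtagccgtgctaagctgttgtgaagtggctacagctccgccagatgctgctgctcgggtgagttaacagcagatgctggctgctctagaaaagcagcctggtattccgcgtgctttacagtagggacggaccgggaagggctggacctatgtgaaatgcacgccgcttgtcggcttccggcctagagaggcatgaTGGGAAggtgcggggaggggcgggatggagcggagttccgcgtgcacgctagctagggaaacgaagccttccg
St3gal6, start 2: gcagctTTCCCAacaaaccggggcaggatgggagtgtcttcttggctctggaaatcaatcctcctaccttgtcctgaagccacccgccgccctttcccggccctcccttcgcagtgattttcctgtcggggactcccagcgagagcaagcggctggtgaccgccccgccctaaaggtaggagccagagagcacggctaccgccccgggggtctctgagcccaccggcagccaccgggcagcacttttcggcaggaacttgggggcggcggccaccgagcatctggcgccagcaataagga
B4galnt2: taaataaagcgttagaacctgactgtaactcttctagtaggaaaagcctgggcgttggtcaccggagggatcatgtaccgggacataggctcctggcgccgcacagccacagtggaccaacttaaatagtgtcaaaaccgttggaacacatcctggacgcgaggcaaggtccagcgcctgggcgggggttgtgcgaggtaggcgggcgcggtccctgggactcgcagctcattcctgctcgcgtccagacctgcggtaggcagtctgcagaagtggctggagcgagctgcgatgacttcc
None of the 3 B3galt5 windows holds the motif. That of B3galt4 holds 1 match, beginning 23 bases before the start, and that of St3gal6 at start 2 has 1 match on the opposite strand, beginning 244 bases before it. The window at the other St3gal6 start, not shown, has 0 matches. A promoter window was found for 68 of the 91 genes. At least 1 window held TGGGAA for 17 of these 68, against 28.3% of the 27025 genes in the table. The longer form GTGGGAA, which contains the core, was held by 5.88% of the 68 and 7.25% of all. A match is a run of letters and not a binding site, and binding was not measured.

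The enzymes that start O-glycans stood mostly above wild type. Of 18 Galnt genes, 11 were tested, 7 were higher in both depleted arrays, 1 was lower in both and 3 were split, against 39.0% higher in both and 19.5% lower in both over all tested genes. Their median difference was 0.57 in depleted array 1, against -0.003 over all tested genes, and 0.43 in array 2, against 0.22. With quantile normalization these medians were 0.62 and 0.15, against -0.001 and 0.02 over all tested genes. None was called (background 0.0841%), and 2, Galnt5 and Galntl6, had a limma unadjusted p under 0.05 (background 2.27%). Galntl6, which is among the 7, reached the level of the filter only in depleted array 1. Galnt12, which is expressed in the digestive tract, read 9.06 and 7.82 in the depleted arrays and 4.40 in wild type, log2 differences of 1.003 and 0.80 (mean 0.90, SE 0.48, limma adjusted p = 0.9997). Both depleted arrays were well above the single wild type array, which both differences share, and the depleted arrays lay close to each other.

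Galnt7, which prefers peptides that already carry GalNAc, read 24.7 and 17.7 in the depleted arrays and 13.1 in wild type. Its other probe sets gave 0.67 and 0.96, and 0.50 and 0.07. All 3 of its probe sets therefore put both depleted arrays above wild type, as did all 3 of Galnt10, another enzyme that prefers GalNAc-bearing peptides, which read 6.74 and 5.25 in the depleted arrays against 4.45 in wild type. Galnt5 read 2.83 and 1.79 in the depleted arrays and 0.826 in wild type, log2 differences of 1.52 and 0.92 from its only probe set (mean 1.22, SE 0.55, limma adjusted p = 0.9997). Galntl6, a relative of the Galnt enzymes, was the one member at least 2-fold higher in both depleted arrays, against a background of 0.841%. It read 1.42 and 0.363 in the depleted arrays and 0.037 in wild type, and the last value lies under the pseudocount. Its mean of 0.606 passed the filter of 0.598 only through depleted array 1, where it was highest, so its place in the counts rests on that value. Its log2 difference averaged 1.82, and 0.22 with a pseudocount of 5, and its other probe set, at 0.305 and 0.037 in the depleted arrays against 0.138 in wild type, went opposite ways.

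Other initiating enzymes mostly differed less from wild type on their brightest probe sets. Galnt4, a mucin glycosylating enzyme, read 14.5 and 26.0 in the depleted arrays and 16.2 in wild type, below it in array 1 and above it in array 2. Galnt3, known for glycosylating the hormone FGF23, was the Galnt gene lower in both, at 8.67 and 7.10 in the depleted arrays against 8.80 in wild type. Galnt6 read 19.5 and 28.2 in the depleted arrays against 17.4 in wild type, Galnt1 13.3 and 17.7 in the depleted arrays against 13.1 in wild type, Galnt2 7.67 and 6.23 in the depleted arrays against 6.51 in wild type, and Galnt11 3.25 and 1.47 in the depleted arrays against 1.85 in wild type. Of these, Galnt6 and Galnt1 were above wild type in both, by 0.16 and 0.02 in depleted array 1. The next probe set of Galnt2 was higher in both, at 0.43 and 0.67, and its dimmest was split, at -0.94 and 0.10. The 7 Galnt genes below the filter were Galnt9, Galnt13, Galnt14, Galnt15, Galnt16, Galnt18 and Galntl5.

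Of 5 genes for core structures 4 were tested, with medians of 0.29 and 0.26 and, in array 2, -0.05 with quantile normalization. Among them C1galt1, the synthase of core 1, had a value in each depleted array above wild type on every probe set. Its brightest read 49.7 and 48.6 in the depleted arrays and 33.9 in wild type, log2 differences of 0.55 and 0.52 (mean 0.53, SE 0.41, limma adjusted p = 0.9997). On this probe set the depleted arrays differed from each other by far less than from the single wild type array, which both differences share. The other 2 gave 0.36 and 0.64, and 0.20 and 0.72, with the depleted arrays further apart. C1galt1c1, also called Cosmc, the chaperone without which C1galt1 is inactive, read 26.5 and 33.9 in the depleted arrays and 26.0 in wild type, differences of 0.02 and 0.38.

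Gcnt3, which adds the branch of core 2 and core 4 in mucin-making epithelium, separated the depleted arrays. It read 22.9 in depleted array 1 and 15.4 in depleted array 2, against 13.8 in wild type, log2 differences of 0.72 and 0.15. A further pair of probe sets, at 0.78 and 0.03 and at 0.57 and -0.03, did likewise, so on all 3 the difference was 0.57 or more in array 1 and under the all-gene median of 0.22 in array 2. Marker lists of 3 secretory cell types also had a higher median in array 1 than in array 2. In array 1 all 16 tested goblet cell markers stood above wild type (background 49.8%), with a median of 0.69, and in array 2 11 of them did (background 69.7%), with a median of 0.31. Of the enteroendocrine markers all 11 did in array 1 and 6 in array 2, with medians of 0.85 and 0.10. Of the 7 Paneth cell markers 5 did in either array, with medians of 0.71 and 0.25. The summed intensity was 1259 and 1026 in the depleted arrays and 769 in wild type for goblet markers, 272 and 174 in the depleted arrays and 164 in wild type for enteroendocrine markers, and 462 and 350.3 in the depleted arrays and 298 in wild type for Paneth markers. No marker of these lists was at 0, and their part in this result was not tested. Gcnt1, which makes core 2 in leukocytes and other cells, read 5.79 and 6.09 in the depleted arrays and 5.86 in wild type, differences of -0.02 and 0.05 that changed sign on average with scaling. B3gnt6, the core 3 synthase, was below the filter, at 0.861 and 0.287 in the depleted arrays against 0.452 in wild type.

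**Figure D2:**
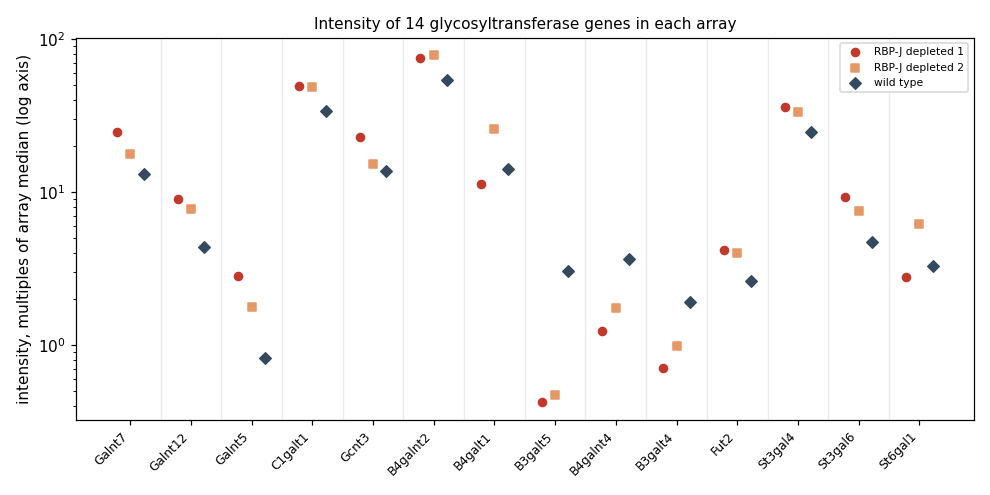
Intensity in multiples of the array median, on a log axis, of 14 glycosyltransferase genes in depleted array 1, depleted array 2 and wild type. C1galt1, B4galnt2, Galnt12 and St3gal6 have both depleted points above wild type, B3galt5, B4galnt4 and B3galt4 have both below, and B4galt1 and St6gal1 have 1 on either side.

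Chains are extended by alternating GlcNAc and galactose, and of 23 such genes 17 were tested. Above wild type in both depleted arrays were 7, below in both 3, and split 7, with medians of 0.20 and 0.15. Over all tested genes 39.0% were above in both, 19.5% below in both and 41.5% split. B4galnt2, which makes the Sd(a) glycan of mouse intestine, read 75.4 and 79.0 in the depleted arrays and 54.3 in wild type, log2 differences of 0.47 and 0.54. Next to it a second bright probe set read 73.8 and 83.0 in the depleted arrays against 51.0 in wild type, and another 43.3 and 54.1 in the depleted arrays against 37.6 in wild type. All 3 bright probe sets thus had both depleted arrays above wild type, and the gene was not called (mean 0.51, SE 0.39, limma adjusted p = 0.9997). B4galnt1, which makes the gangliosides GM2 and GD2, read 49.3 and 68.6 in the depleted arrays and 36.6 in wild type, but its dimmer probe set was lower in both, at 6.28 and 5.82 in the depleted arrays against 7.87 in wild type.

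Enzymes for the galactose of type 2 chains and of lactosylceramide varied between the depleted arrays. B4galt1, the main galactosyltransferase of type 2 chains, read 11.4 in depleted array 1 and 25.8 in depleted array 2, against 14.3 in wild type. B4galt5, of lactosylceramide synthesis, read 10.2 and 15.1 in the depleted arrays and 11.6 in wild type, with the same split on its other probe set. For B4galt6, which also makes lactosylceramide, the brightest probe set gave -0.02 and 0.55, while the other 3 were higher in both, by 0.07 to 0.60 in array 1 and 0.44 to 0.66 in array 2. B4galt3 read 2.17 and 2.59 in the depleted arrays and 1.35 in wild type, but its other probe set, at 0.163 and 0.911 in the depleted arrays against 1.09 in wild type, was lower in both. Gcnt2, which branches chains into the I antigen, had 8 probe sets; the brightest was higher in both at 12.5 and 15.2 in the depleted arrays against 9.40 in wild type, 2 others were too, and 5 were lower in both. B3gnt3, which extends core 1, read 38.7 and 41.9 in the depleted arrays and 33.6 in wild type, and B3gnt7, of sulfated chains, 6.09 and 5.17 in the depleted arrays and 5.91 in wild type.

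**Figure D3:**
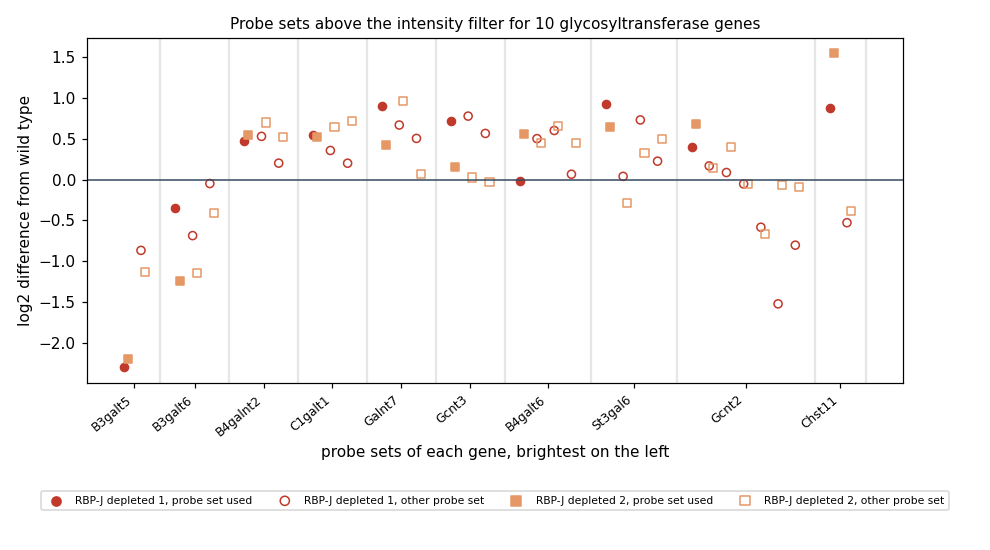
Log2 difference from wild type of every probe set above the intensity filter for 10 genes, the brightest probe set of each filled and the others open. B4galnt2, C1galt1 and Galnt7 keep all points above 0 and B3galt5 and B3galt6 all below it, while the probe sets of Gcnt2 and Chst11 lie on both sides.

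Of the fucosyltransferases, 5 of 8 were tested, 2 were higher in both depleted arrays, 1 was lower in both and 2 were split, with medians of 0.16 and 0.17. The background was 39.0% higher in both and 19.5% lower in both. Fut2, which puts the terminal fucose of the H antigen on intestinal mucin, read 4.18 and 3.98 in the depleted arrays and 2.63 in wild type, log2 differences of 0.62 and 0.56 (mean 0.59, SE 0.50, limma adjusted p = 0.9997). Both depleted arrays were above the single wild type array, which both differences share, and close to each other. A dimmer probe set of Fut2 read 0.588 and 0.902 in the depleted arrays against 0.853 in wild type, with differences of -0.40 and 0.06. Fut1, which makes the same structure, read 0.168 and 0.040 in the depleted arrays against 0.065 in wild type, under the pseudocount in every array, so no difference could be read from it. Of 12 M cell markers, 7 were above wild type in array 1 (background 49.8%) and all 12 in array 2 (background 69.7%), with medians of 0.08 and 0.61. Their summed intensity was 517 and 677 in the depleted arrays and 463 in wild type, none was at 0, and their part in the Fut2 values was not tested. Gp2, a defining M cell marker and the lowest of the list in array 1, read 9.90 and 32.6 in the depleted arrays and 19.8 in wild type, and Marcksl1, another, 84.9 and 94.6 in the depleted arrays and 60.4 in wild type.

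Fut4, which makes Lewis x, read 6.21 and 7.36 in the depleted arrays and 5.55 in wild type, and its other probe set was higher in both as well. Fut7, of the selectin ligand sialyl Lewis x, read 1.79 and 1.83 in the depleted arrays against 2.02 in wild type, differences of -0.16 and -0.13. Fut8, which adds the core fucose of N-glycans, read 19.5 in depleted array 1 and 10.1 in depleted array 2, against 12.1 in wild type, and its other 2 probe sets disagreed with each other in direction. Fut9, Fut10 and Fut1 were below the filter.

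The sialyltransferases held 15 tested genes of 20. Of these, 8 were higher in both depleted arrays, 1 was lower in both and 6 were split, where the background was 39.0% higher and 19.5% lower. The medians were 0.11 and 0.21, against -0.003 and 0.22 over all tested genes. St3gal4 and St3gal6, which cap type 2 chains with sialic acid, were both higher in both. St3gal4 read 35.9 and 33.8 in the depleted arrays and 24.7 in wild type, log2 differences of 0.54 and 0.45 from its only probe set. St3gal6 read 9.27 and 7.57 in the depleted arrays and 4.76 in wild type, differences of 0.93 and 0.64 (mean 0.79, SE 0.48, limma adjusted p = 0.9997). Of its 3 other probe sets above the filter, 2 were higher in both and 1 was split. St3gal1, which caps core 1, read 17.5 and 19.0 in the depleted arrays and 16.8 in wild type, but its dimmer probe set was lower in both, at -0.42 and -1.37. St6galnac1, which makes sialyl-Tn, read 1.37 and 1.57 in the depleted arrays and 1.52 in wild type, and its mean difference of -0.04 was 0.13 as the mean of its probe sets.

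St6gal1, which adds the sialic acid that the B cell lectin CD22 binds, divided the depleted arrays. It read 2.78 in array 1 and 6.20 in array 2, against 3.30 in wild type, and its other probe set 0.478 and 2.59 in the depleted arrays against 1.45 in wild type. On both probe sets array 1 was the lowest of all and array 2 the highest. Marker lists of B, T and M cells had a lower median in array 1 than in array 2. So did all tested genes, at -0.003 and 0.22, and the lists of absorptive enterocyte and stroma markers. Of 14 B cell markers 1 was above wild type in array 1 (background 49.8%), with a median of -0.93. In array 2, 8 were (background 69.7%), with a median of 0.08, while 6 were below wild type in both arrays (background 19.5%). Their summed intensity was 33.3 and 82.8 in the depleted arrays and 65.6 in wild type, and none was at 0. Of 10 T cell markers 2 were above wild type in array 1 and 9 in array 2, with medians of -0.10 and 0.41 and a summed intensity of 49.3 and 67.6 in the depleted arrays and 56.5 in wild type. The M cell list is given above beside Fut2. Ms4a1 read 4.12 and 6.73 in the depleted arrays and 11.1 in wild type, and Cd79a 5.85 and 16.7 in the depleted arrays and 11.1 in wild type. St8sia4, which makes polysialic acid, read 4.43 and 8.63 in the depleted arrays against 7.44 in wild type, and B4galt1, above, lay lowest in array 1 and highest in array 2 too. The part of these cell types in the values was not tested.

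St8sia1, St8sia3 and St8sia6 read under 2 array medians in every array. St8sia1, which makes the ganglioside GD3, read 1.71 and 0.693 in the depleted arrays and 0.293 in wild type, log2 differences of 1.85 and 0.80 (mean 1.33, SE 0.62, limma adjusted p = 0.9997). Its wild type value lies close to the pseudocount, and with a pseudocount of 5 the difference was 0.22. Both dimmer probe sets of St8sia1 also lay above wild type, at 1.47 and 1.17 for 1 and 0.33 and 0.40 for the other. St8sia6 read 0.721 and 1.36 in the depleted arrays and 0.330 in wild type, while another of its probe sets went opposite ways. St8sia3 read 1.54 and 0.608 in the depleted arrays and 1.78 in wild type, while its other probe set was split, at 0.56 and -0.21. St3gal3, which sialylates type 1 and type 2 chains, read 2.59 and 0.567 in the depleted arrays and 1.99 in wild type, the widest gap between the depleted arrays among tested members. Its other probe set, below the filter, did not show this gap. It read 0.548 and 0.468 in the depleted arrays against 0.174 in wild type. At least 2-fold between the depleted arrays were 10 of the 61, or 16.4%, where the background was 9.05%.

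Sulfation had medians of -0.08 and -0.17 over 4 tested genes of 7, below the medians of all tested genes in both arrays. With no intensity filter, over all 7, the medians were 0.11 and -0.03. Chst4, which sulfates GlcNAc in the ligands of L-selectin, read 6.50 and 4.74 in the depleted arrays and 6.12 in wild type. Chst1, which sulfates galactose of keratan sulfate, read 2.40 and 2.28 in the depleted arrays against 2.89 in wild type, and Chst2, another GlcNAc sulfotransferase, 0.304 and 1.14 in the depleted arrays against 1.17 in wild type. Chst1 and Chst2 were thus the pair below wild type in both (background 19.5%), Chst2 by only 0.03 in array 2. Chst8, which sulfates the GalNAc of LacdiNAc, read 2.62 and 3.85 in the depleted arrays and 2.29 in wild type, above it in both. Chst5, the intestinal GlcNAc sulfotransferase, was below the filter at 0.399 and 0.314 in the depleted arrays against 0.133 in wild type. Among 9 proteoglycan enzymes, 5 were tested and their medians were 0.11 and 0.20. Chst11, of chondroitin sulfate, read 1.12 and 1.93 in the depleted arrays and 0.498 in wild type (mean difference 1.21, SE 0.59, limma adjusted p = 0.9997), and its other probe set was lower in both, at 0.746 and 0.849 in the depleted arrays against 1.19 in wild type.

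Genes that carry or feed these glycans were set beside the enzymes. Of 5 tested mucins, 2 were higher in both depleted arrays, 2 were lower in both and 1 was split. Over all tested genes 39.0% were higher in both and 19.5% lower in both. Muc2, the secreted mucin of goblet cells, read 127 and 62.6 in the depleted arrays and 67.2 in wild type. Muc13, a membrane mucin, read 144 and 146 in the depleted arrays and 130 in wild type, and Muc3, another, 57.0 and 67.2 in the depleted arrays and 50.2 in wild type. Muc4 read 15.7 and 15.3 in the depleted arrays against 20.0 in wild type, and Muc20 1.82 and 1.58 in the depleted arrays against 3.21 in wild type, so these membrane mucins were lower in both.

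Sugar donor and sulfate supply had medians of -0.01 and 0.26 over 21 tested genes, close to the -0.003 and 0.22 of all tested genes. Of these 9 were higher in both depleted arrays, 4 were lower in both and 8 were split, and none was called. Over all tested genes 39.0% were higher in both, 19.5% lower in both and 0.0841% called. Nans and Nanp, which act one after the other in sialic acid synthesis, lay on opposite sides, at 29.0 and 27.7 in the depleted arrays against 22.8 in wild type for Nans and 4.30 and 6.72 in the depleted arrays against 8.41 in wild type for Nanp. Gmds, which starts GDP-fucose synthesis, read 43.4 and 48.5 in the depleted arrays and 38.0 in wild type, and Papss2, which makes the sulfate donor, 115 and 129 in the depleted arrays and 108 in wild type. Other branching and capping enzymes had medians of 0.31 and 0.23 over 8 tested genes, with 5 higher in both depleted arrays, 1 lower in both and 2 split. The same all-gene shares apply to these counts. Mgat1, the first branching enzyme of N-glycans, read 4.61 and 5.92 in the depleted arrays and 3.35 in wild type, and Mgat3, which adds the bisecting GlcNAc, 9.50 and 7.62 in the depleted arrays and 6.09 in wild type.

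**Figure D4:**
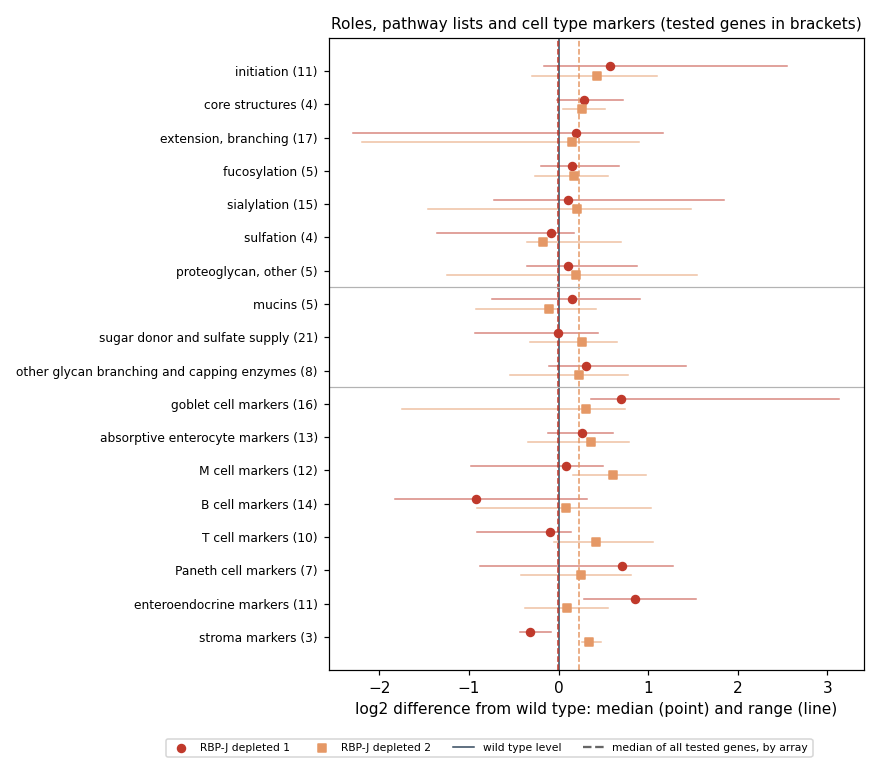
Median (point) and range (line) of log2 differences from wild type for the 7 roles, 3 pathway lists and 8 lists of cell type markers, with the number of tested genes in brackets. Initiating enzymes stand at 0.57 and 0.43, goblet cell markers at 0.69 and 0.31, and B cell markers at -0.93 and 0.08.

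Absorptive enterocyte markers had medians of 0.26 and 0.36 over 13 genes, with summed intensities of 1285 and 1458 in the depleted arrays and 1104 in wild type. Of 9 stroma markers 3 were tested, with medians of -0.32 and 0.34. None was above wild type in array 1 (background 49.8%) and all were in array 2 (background 69.7%). The summed intensity of all 9 was 14.7 and 21.2 in the depleted arrays and 15.3 in wild type.

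Brightness divided the members too. The 29 with a mean intensity of at least 5 had differences between -0.72 and 1.003 in depleted array 1 and between -0.35 and 0.90 in depleted array 2. Their median differences were 0.16 in array 1 and 0.38 in array 2, where all tested genes that bright had 0.01 in array 1 and 0.29 in array 2. The 32 tested members below that mean spanned -2.30 to 2.55 in array 1 and -2.19 to 1.55 in array 2, and all 6 with an unadjusted p under 0.05 were among them. The same lean ran through all tested genes. The limma unadjusted p was under 0.05 for 209 of the 6014 below that mean and for 61 of the 5871 others. The 30 members below the filter, which asked for a mean of at least 0.598, took no part in the counts. St3gal2 and Galntl6 stood just above it at 0.599 and 0.606, and B3gnt6 and B3gnt8 just below at 0.533 and 0.532.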

How the data were processed

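Gene expression was measured in 3 samples on Affymetrix arrays from biotinylated cRNA. What the authors deposited is an intensity on a linear scale for each probe set. MAS5 made these, per the submitters' processing notes, and every array has a median of 1. Names came from the platform annotation; of 45037 probe sets that are not controls, 34945 had 1 symbol, 932 several and 9160 none. All 91 members matched a RefSeq gene by Entrez number. The test took in genes whose mean was at least 0.598 (the 40th percentile of probe set means). Intensities were taken to log2(value + 0.248), the 25th percentile of all values, with no further scaling. Depleted arrays were set against wild type with limma 3.58.1 under R 4.3.3 (lmFit, eBayes with intensity trend), with Benjamini-Hochberg adjustment over 11885 genes. The fit had 1 residual and 600 prior degrees of freedom. It assumes that the lone wild type array varies like the depleted ones. The fit was also run on simulated data, whose noise in every array was set from the depleted pair, so that run could not check this assumption. No set test was run. The members and lists were chosen with earlier results of these data known. Members named with values include any with an adjusted p under 0.05. They also include the 8 largest rises and 8 largest falls by the smaller difference, the 5 brightest, and the 5 with the widest gap between depleted arrays. A further 23 genes were fixed by name, of which Gcnt4 had no probe set of its own. Other members named here were chosen after their values were seen. They complete the tested initiating enzymes, but some tested members of other roles are not given. Alternatives were other pseudocounts, scalings, filters and probe set rules. No depth applies to arrays, and their number limits the precision.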

Additional observations from a re-analysis of the deposited data

How the results depend on the processing

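Of 252 log2 differences of the 36 named tested members recomputed under settings that keep all arrays, 245 kept their direction and their side of the threshold. Part of this agreement was fixed in advance. The fit without an intensity trend leaves every difference unchanged, and a pseudocount cannot turn the direction of either array's difference. Averaging probe sets changes nothing for a gene with 1 probe set. The filter settings were not among the 252. With 1 depleted array left out, the direction turned for 9 of the 36, whose range was -0.244 to 1.165 for B3galt2, -1.459 to 0.341 for St3gal3, -0.318 to 0.843 for B4galt1, -0.157 to 0.676 for Galnt4, -0.352 to 0.086 for Chst4, -0.016 to 0.553 for B4galt6, -0.184 to 0.042 for B3gnt7, -0.017 to 0.054 for Gcnt1 and -0.129 to 0.04 for St6galnac1. B3galt5 passed the test with a pseudocount of 5, which made the number of members called 1 instead of 0, while it stayed 0 under the other settings run. The difference of Gcnt1, 0.02 as reported, was -0.064 after quantile normalization, -0.05 when arrays were matched at the 75th percentile and -0.104 when matched on bright named genes (mean at least 5). That of St3gal1, 0.12, was -0.046 after quantile normalization and -0.008 when matched on bright named genes, and that of St6galnac1, -0.04, was 0.125 when probe sets were averaged; the cause was not tested. Members past 2-fold in both arrays, 1 higher and 1 lower, numbered 1 in all with a pseudocount of 1 or with averaged probe sets, 0 of them higher. They numbered 0, with 0 higher and 0 lower, with a pseudocount of 5 and with the stricter filter (60th percentile), which takes B3galt5 and Galntl6 out of the genes tested. Quantile normalization and matching at the 75th percentile each gave 2 lower, and matching on bright named genes 3 lower and 0 higher. With 1 depleted array left out, 7 to 9 members were at least 2-fold from wild type, 3 to 5 higher and 4 lower. The median difference over tested members, 0.18 ± 0.03 (SD of the 2 depleted arrays), was 0.082 with a pseudocount of 5, 0.104 after quantile normalization, 0.118 matched at the 75th percentile, 0.066 matched on bright named genes and 0.237 under the stricter filter, and 0.16 to 0.21 with 1 array left out. The SD of 0.03 takes no account of each array's own shift. As reported, the member median was 0.16 in array 1, against -0.003 over all tested genes, and 0.21 in array 2, against 0.22. Matched on bright named genes, 36.1% of members were higher and 24.6% lower in both depleted arrays, and the median over all tested genes became 0.004 in array 1 and -0.02 in array 2. Leaving out a depleted array leaves no residual degrees of freedom, so no test was run. No paired analysis was possible because there is a single wild type array and its title gives no replicate number.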
